A study of Mus musculus with 12 samples.

Results

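The tight and adherens junction genes described here are 40 genes of the blood-epididymis barrier, taken from a written list and matched by symbol among the 55536 genes of each count table. The rule itself uses no measured value, though the list was drawn up with earlier results of these data known. The list holds 19 tight junction strand proteins (16 claudins, occludin, and the MARVEL proteins encoded by Marveld2 and Marveld3), 10 scaffolds and immunoglobulin-like proteins of the tight junction, 8 adherens junction or cell adhesion genes, and 3 connexins. Polyadenylated RNA came from segments 1, 2 and 3 of the epididymis of wild-type (WT) mice, either after efferent duct ligation or from control epididymides without ligation. The efferent ducts bring sperm and fluid from the testis, and segment 1, where the duct of the epididymis begins, lies nearest to them. Per the labels the suture was tied on these ducts close to the caput, and every library is a pool of 2 mice. Each of the 6 groups has 2 libraries, 1 in sequencing batch 3017 and 1 in batch 3097. The sources used here do not give the time after ligation, the age and strain of the mice, or whether control and ligated tissue shared animals. The p-values measure spread between pools of mice after differences between the 2 batches are taken out, estimated over all libraries together. The sample titles do not say whether segments of 1 condition and batch came from the same mice. If they did, p-values between segments do not compare independent pools.

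The epithelium of the epididymis separates the lumen, in which sperm mature, from blood and tissue fluid. Tight junctions close the space between neighbouring cells: claudins form their strands, occludin and the MARVEL proteins join them, and scaffolds of the zonula occludens, cingulin and Patj types hold the strands to actin and to polarity complexes. Below them, adherens junctions hold cells together through cadherins, whose tails bind catenins, and connexins form the gap junction channels that let small molecules pass between cells. Some claudins seal the space, while others, such as claudin 2 and forms of claudin 10, make it passable for ions.

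Libraries held 30.5 to 42.3 M counts, and 3 counts were worth 0.07 to 0.10 CPM (counts scaled to a common library size, with TMM factors). All 10 markers each of principal cells and of general epithelium were measured in every group, though Cldn7, Epcam and Cdh1 belong to the second list as well. The 2 libraries of control segment 2 stood farthest apart, their counts differing by a chi-square of 120 per degree of freedom, where the other groups had 23.5 to 83.4, and counts of calls that involve them are given with and without each. Of the 40 genes, 38 passed the filter on low counts. Cldn19, a claudin known from kidney and nerve, had 0 counts in all 12 libraries, which limits it to the level of 3 counts given above. Cldn18, known from lung and stomach, had 3 counts in 2 libraries. Where 2 values are joined by "and" below, the first is from batch 3017 and the second from batch 3097. Tests are edgeR's quasi-likelihood test with batch in the model, adjusted by Benjamini-Hochberg over 19213 genes and called at an adjusted p under 0.05.

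Levels of different genes can be compared only per length, so they are first given as CPM per kb of exon. In control segment 1 the highest was Cldn2, the cation- and water-permeable claudin, at 367 CPM per kb, followed by Epcam, an epithelial adhesion molecule, at 202, Ctnnb1, which encodes beta-catenin, at 178, Cldn4 at 169 and Cldn3 at 148. Claudin 4 and claudin 3 are both widespread epithelial claudins. The order was different elsewhere. In control segment 3 Cldn2 stood at 339 CPM per kb, Cldn3 at 288, and Cdh16, which encodes the cadherin of kidney and thyroid epithelium (Ksp-cadherin), at 202.5, against 18.9 for Cdh16 in control segment 1. In ligated segment 1 the leading values were 293 for Cldn2, 284 for Cldn3, 185 for Epcam and 163 for Cdh16. At the other end, 7 genes stayed under 2 CPM in the mean of every group: Cldn6, Cldn9, Cldn15, Cldn16, Cldn18, Cldn19 and the N-cadherin gene Cdh2.

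**Figure D1:**
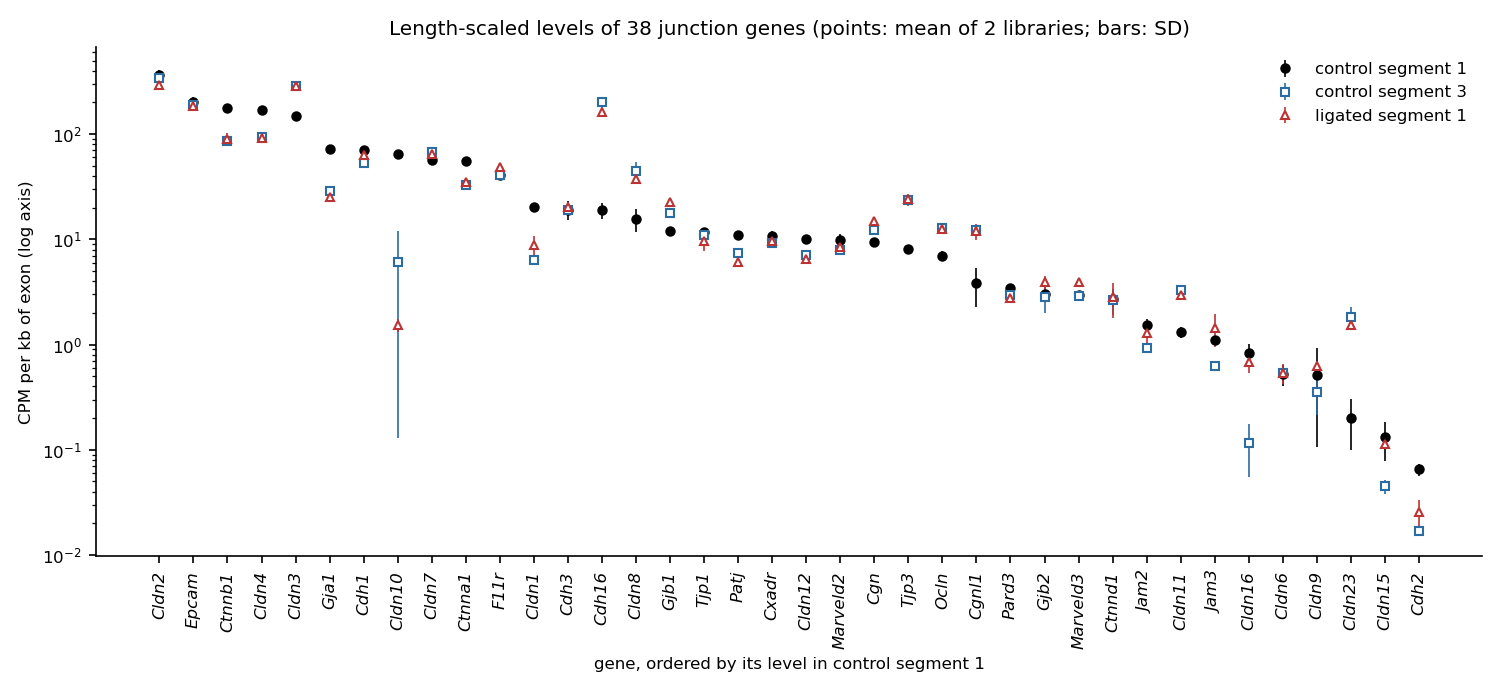
Length-scaled level of the 38 tested genes in control segment 1, control segment 3 and ligated segment 1 (log axis, CPM per kb of exon; points are means of 2 libraries, bars SD). Most points of a gene lie together, while Cldn10, Cdh16, Cgnl1, Tjp3 and Cldn23 show ligated segment 1 near control segment 3 or beyond it and away from control segment 1.

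In both batches the libraries of control segment 1 were set apart from the rest. For 19 of the 38 tested genes, both of its libraries lay outside the range of the other 10, 10 genes above and 9 below. Of all 19213 genes tested, 44.1% did so, so the share among the junction genes is near that of genes in general. The genes above were Cldn1, Cldn4, Cldn10, Cldn12, Marveld2, Patj, Pard3, Ctnna1, Ctnnb1 and Gja1. Those below were Cldn3, Cldn8, Cldn11, Cldn23, Ocln, Tjp3, Cgn, Cgnl1 and Cdh16.

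**Figure D2:**
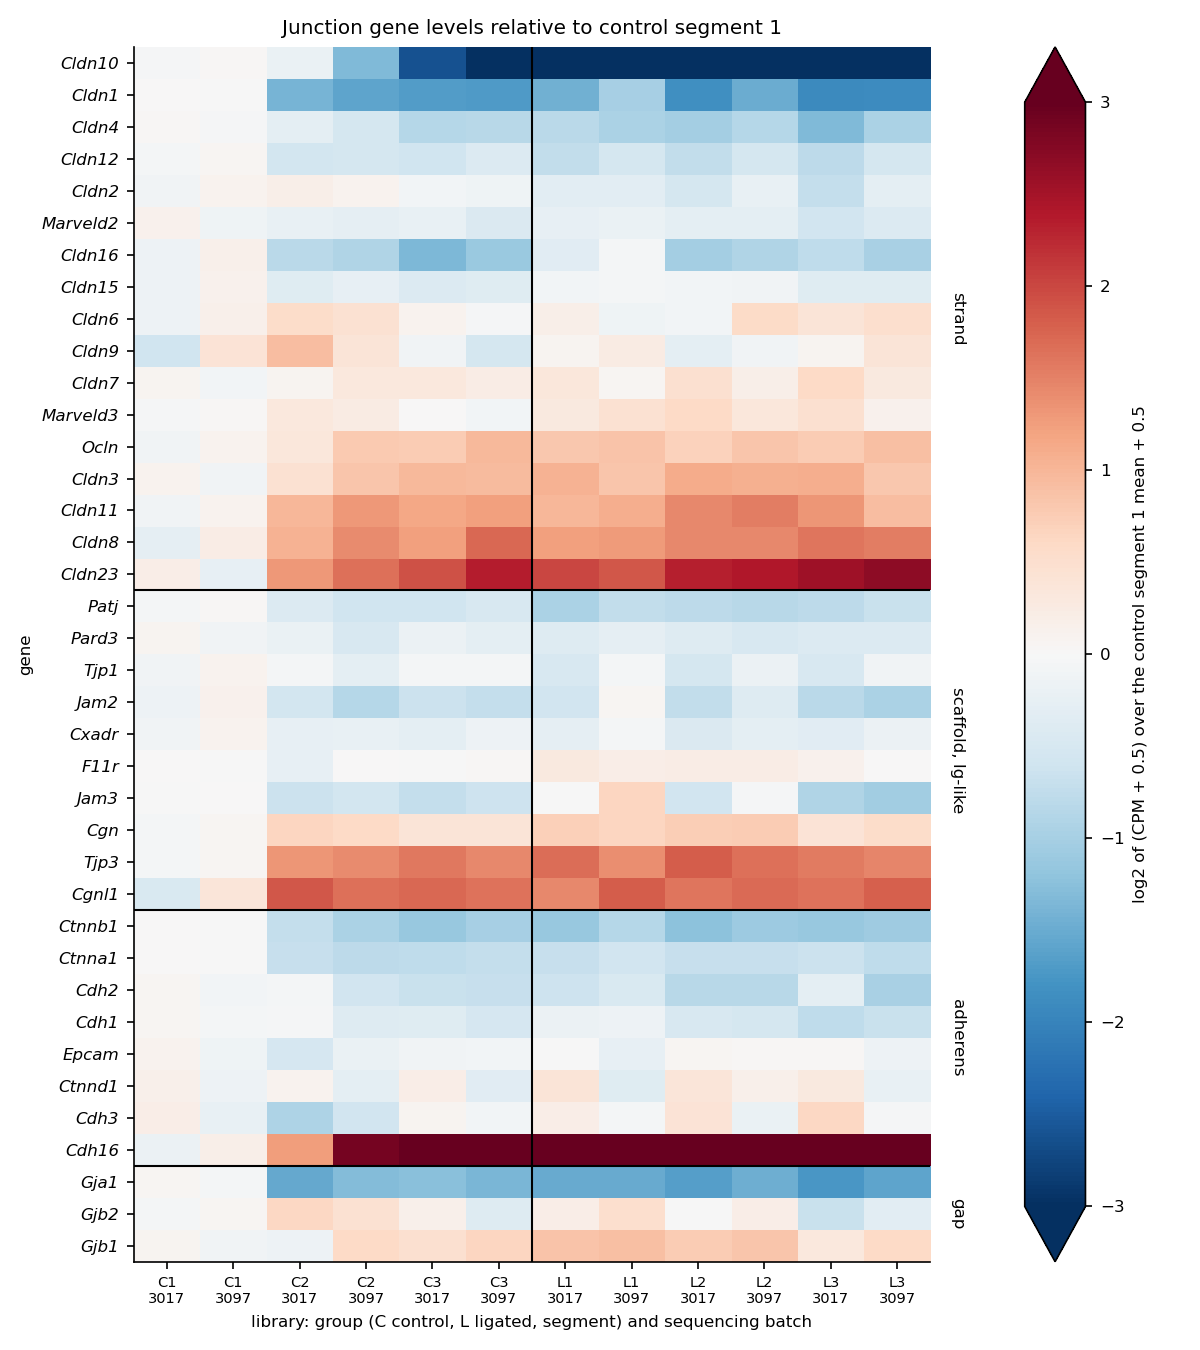
Each of the 12 libraries (columns) against the mean of control segment 1, as the log2 of CPM plus 0.5, for the 38 tested genes (rows) grouped by role; colours end at -3 and 3. The 10 libraries outside control segment 1 show similar colours for most genes, with the control segment 2 library of batch 3017 paler than that of batch 3097 for Cdh16 and nearer to control segment 1 for Cldn10.

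Ligation was compared with control in segment 1 to ask how junction transcripts there differ when the inflow from the testis is blocked. Of the 38 tested genes, 21 passed the test: 12 rose and 9 fell after ligation. In the same comparison 48.7% of all genes were called. The share among the junction genes, 55.3%, is close to that background, and their median log2 fold change was -0.05 against 0.03 over all genes. All 21 had the same direction in both batches, which selection by this test favours, so it is no further support. In the model 9 of the called genes changed at least 2-fold: Cdh16, Cldn23, Cgnl1, Tjp3, Cldn8 and Cldn11 rose, and Cldn10, Gja1 and Cldn1 fell. By role, 6 strand genes rose and 4 fell of 17 tested, 4 scaffold or immunoglobulin-like genes rose and 2 fell of 10, 1 adherens gene rose and 2 fell of 8, and 1 connexin gene rose and 1 fell of 3. With library sizes taken as the total counts alone, the median over all genes moves by 0.20 and the calls over all genes split into 6505 higher and 3130 lower, against 4684 and 4679 with TMM. In these bulk samples fewer cells of a type and less RNA per cell cannot be told apart.

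Among the strand genes, Cldn10, a claudin whose forms make ion-selective pores, had the largest change. It stood at 164 and 171 CPM in control segment 1, 146 and 66.3 in control segment 2, 26.8 and 4.87 in control segment 3, 3.59 and 4.34 in ligated segment 1, 6.82 and 1.41 in ligated segment 2, and 8.04 and 1.49 in ligated segment 3. The control libraries were thus ordered from high to low along the duct, and all 6 ligated libraries were low. Among the control segments only the difference between segments 1 and 3 passed the test. In segment 1 its mean fell from 167 ± 5.32 to 3.97 ± 0.527 CPM (SD, n = 2), a log2 fold change of -5.47 ± 0.91 (SE; adjusted p = 0.00446). Within the batches the log2 ratio was -5.33 and -5.15. Cldn1, a barrier-forming claudin, had 99.4 and 98.3 CPM in control segment 1 and 36.0 and 49.2 in ligated segment 1, a fall of -1.22 ± 0.14 on the log2 scale (adjusted p = 0.000164). Its other libraries lay between 26.1 and 37.0 CPM. Cldn4 held 315 and 301 CPM in control segment 1, 249.5 and 212 in control segment 2, 170.0 and 173 in control segment 3, and 176 and 160.3 in ligated segment 1. The control segments were ordered with no overlap, and the ligated libraries of segment 1 sat at the level of control segment 3. The change in segment 1 was -0.87 ± 0.13 (adjusted p = 0.000587). Cldn12, a claudin without the usual tail motif for scaffold binding, fell from 41.0 and 44.5 to 25.6 and 29.6 CPM (-0.64 ± 0.08, adjusted p = 0.000251), and its remaining libraries held 24.7 to 31.9 CPM.

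Of the 6 strand genes that rose, all but Marveld3 had their lowest mean in control segment 1. Cldn8, a sealing claudin best known from the kidney, had 30.3 and 43.4 CPM there, 75.9 and 99.3 in control segment 2, 87.5 and 122 in control segment 3, and 86.5 and 90.2, 101 and 102, and 112 and 107 in ligated segments 1, 2 and 3. Its rise in segment 1 was 1.28 ± 0.15 on the log2 scale (adjusted p = 0.000221). Cldn3 had 201 and 173 CPM in control segment 1, 257 and 331 in control segment 2, 365 and 361 in control segment 3, and 384 and 332 in ligated segment 1, a rise of 0.94 ± 0.15 (adjusted p = 0.000657). Ocln, the occludin gene, rose from 27.5 and 31.5 to 51.9 and 53.6 CPM (0.84 ± 0.10, adjusted p = 0.000148). In control segments 2 and 3 Ocln held 37.2 and 51.3 and 50.2 and 58.1 CPM, and in ligated segments 2 and 3 48.3 and 52.5 and 50.4 and 55.6. At lower levels, Cldn11, the claudin of myelin and Sertoli cells, rose from 2.23 and 2.65 to 5.34 and 5.79 CPM (1.19 ± 0.20, adjusted p = 0.00112), and Cldn23 from 0.501 and 0.238 to 2.99 and 2.66 CPM (2.89 ± 0.35, adjusted p = 0.000162). Both lay at these higher levels in the other groups too: Cldn11 between 5.11 and 8.03 CPM and Cldn23 between 1.65 and 5.08 CPM. Marveld3 rose from 9.64 and 9.98 to 12.04 and 13.7 CPM (0.39 ± 0.15, adjusted p = 0.0499), a call that 10 of 17 other settings ended. With the ligated segment 1 library of batch 3097 left out it was 0.23, and with library totals alone 0.60.

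Cldn2, the claudin highest per length in control segment 1, did not pass the test in segment 1. It held 1127 and 1311 CPM in control segment 1, 1377 and 1308 in control segment 2, 1142 and 1114 in control segment 3, 976 and 975 in ligated segment 1, 845 and 1047 in ligated segment 2, and 741 and 987 in ligated segment 3. The ligated libraries lay below the control libraries of the same segment in all 3 segments, and the segment 1 difference was -0.32 ± 0.14 (adjusted p = 0.0833). Cldn7, a claudin of the lateral membrane, ran from 103 to 168 CPM over the 12 libraries, with 117 and 103 in control segment 1 and 139.8 and 114 in ligated segment 1, which overlap (0.20 ± 0.12, adjusted p = 0.2). Marveld2, which encodes tricellulin of tricellular contacts, had 36.5 and 30.7 CPM in control segment 1 and 28.0 and 29.3 in ligated segment 1 (-0.23 ± 0.11, adjusted p = 0.119). The other strand genes tested, Cldn6, Cldn9, Cldn15 and Cldn16, stayed at 0.0852 to 1.86 CPM in all libraries and were not called for ligation in any segment.

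Among the scaffolds, Tjp3, which encodes zonula occludens protein 3, had the smallest adjusted p of the 38 genes. It stood at 29.2 and 31.4 CPM in control segment 1, 77.2 and 82.3 in control segment 2, 92.4 and 83.8 in control segment 3, 97.4 and 80.8 in ligated segment 1, 109 and 96.4 in ligated segment 2, and 89.7 and 84.6 in ligated segment 3. The 2 control segment 1 libraries were far below the other 10, and the rise there was 1.55 ± 0.10 (adjusted p = 1.1e-05). Its paralog Tjp1 (zonula occludens protein 1), with 84.6 and 97.1 CPM in control segment 1 and 64.6 and 86.6 in ligated segment 1, overlapped and was not called (-0.27 ± 0.15, adjusted p = 0.159). Over the 12 libraries Tjp1 ran from 62.6 to 97.1 CPM. The cingulin genes, which tie junctions to actomyosin, both rose. Cgnl1 (paracingulin) went from 21.5 and 38.3 to 81.8 and 106 CPM (1.67 ± 0.22, adjusted p = 0.000719), with 91.3 to 109 CPM in the other groups. Cgn (cingulin) went from 54.0 and 58.8 to 93.6 and 87.7 CPM (0.69 ± 0.08, adjusted p = 0.00012), with 74.3 to 95.4 CPM elsewhere. Neither gene had a library outside control segment 1 as low as those of control segment 1.

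A pair of polarity scaffolds went the other way. Patj, of the Crumbs complex, had 138 and 147 CPM in control segment 1, 107 and 93.9 in control segment 2, 94.0 and 102 in control segment 3, and 74.0 and 85.3, 82.5 and 80.3, and 82.6 and 89.0 in ligated segments 1 to 3. All 6 ligated libraries lay below all 6 control libraries, and in segment 1 the fall was -0.84 ± 0.10 (adjusted p = 0.000116). Pard3, of the Par complex, had 53.4 and 46.9 CPM in control segment 1 and 38.5 and 41.2 in ligated segment 1 (-0.33 ± 0.09, adjusted p = 0.0169), with 35.6 to 44.3 CPM in the other groups. Its call was lost without the control segment 1 or the ligated segment 1 library of batch 3017 (-0.28 and -0.21, adjusted p = 0.117 and 0.176) and with library totals alone (-0.12, adjusted p = 0.329). F11r, which encodes junctional adhesion molecule A, had 109.6 and 107 CPM in control segment 1 and 133 and 124 in ligated segment 1 (0.25 ± 0.09, adjusted p = 0.0492). Its remaining libraries held 92.0 to 127 CPM, and 13 of 17 other settings ended the call, while library totals alone gave 0.45. The related adhesion molecules Jam2 (4.50 to 10.2 CPM over all libraries) and Jam3 (1.44 to 5.77 CPM) were not called for ligation in segment 1, and neither was Cxadr, the coxsackie and adenovirus receptor gene. Cxadr had 74.1 and 86.6 CPM in control segment 1 and 66.3 and 77.1 after ligation, within 59.8 to 86.6 over all libraries. Cxadr shares 695 exon bases with Btg3 on the other strand, whose level was 118 to 302 CPM, and Jam3 shares 1159 with Gm48796. The sources used here give no strand setting for the counting, so both values are uncertain.

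The adherens junction genes held the largest rise. Cdh16 stood at 63.0 and 80.4 CPM in control segment 1, 171 and 524 in control segment 2, 705 and 831 in control segment 3, 638 and 599.6 in ligated segment 1, 747 and 726 in ligated segment 2, and 773 and 722 in ligated segment 3. The control level climbed along the duct, though the test made no call between control segments 2 and 3. The 2 pools of control segment 2 differed from each other more than did those of any other group, while the ligated libraries were all high. In segment 1 the rise was 3.13 ± 0.44 (adjusted p = 0.00149). The classical E-cadherin gene Cdh1 had 341 and 311 CPM in control segment 1, 318 and 248 in control segment 2, 254 and 231 in control segment 3, and 286 and 293, 235 and 224, and 191 and 205 in ligated segments 1 to 3. It was not called for ligation in any segment, with -0.17 ± 0.11 in segment 1 (adjusted p = 0.234). Neither was Cdh3, the P-cadherin gene, at 95.5 and 72.0 CPM in control segment 1 and 96.8 and 80.9 after ligation, nor Epcam, at 479 and 406 and at 437 and 376 CPM. Over the 12 libraries Cdh3 ran from 43.6 to 129 CPM, with both control segment 2 libraries at the bottom, and Epcam from 312 to 479 CPM. Cdh2 stayed at 0.0253 to 0.576 CPM, and with counts this low its segment 1 difference of -1.32 ± 0.72 was not called (adjusted p = 0.155).

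The catenins that link cadherins to actin fell without a fall of Cdh1 that passed the test. Ctnnb1 had 927 and 926 CPM in control segment 1, 568 and 476 in control segment 2, 423 and 464 in control segment 3, and 421 and 509, 395 and 432, and 421 and 446 in ligated segments 1 to 3. In segment 1 its fall was -0.997 ± 0.12 (adjusted p = 0.000194). Ctnna1, the alpha-catenin gene, fell from 359 and 348 to 219 and 236 CPM (-0.64 ± 0.08, adjusted p = 0.000274), and every library outside control segment 1 held 204 to 236 CPM. Ctnnd1, which encodes p120-catenin, had 22.0 and 17.7 CPM in control segment 1 and 26.1 and 15.4 after ligation, which overlap (0.03 ± 0.13, adjusted p = 0.842). It was the one junction gene called between the batches (-0.47 for batch 3097 against 3017, adjusted p = 0.0072). Its level is uncertain, since 4482 of its exon bases also belong to Gm28635 on the same strand, which had 0 counts in every library. Ctnnb1 shares 759 exon bases with Ulk4 on the other strand (10.6 to 17.4 CPM).

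Of the 3 connexins, Gja1 (connexin 43) was highest in control segment 1. It held 768 and 716 CPM there, 254 and 299.7 in control segment 2, 309 and 289 in control segment 3, and 259 and 261, 237 and 269, and 222 and 248 in ligated segments 1 to 3. The 10 other libraries lay between 222 and 309 CPM, far below both, and the fall in segment 1 was -1.51 ± 0.11 (adjusted p = 1.6e-05). Gjb1 (connexin 32) rose from 22.0 and 19.2 to 37.7 and 39.1 CPM (0.89 ± 0.18, adjusted p = 0.00408), with 18.4 to 37.0 CPM in the other groups. Gjb2 (connexin 26), at 4.35 to 11.5 CPM, was not called (0.38 ± 0.22, adjusted p = 0.189).

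**Figure D3:**
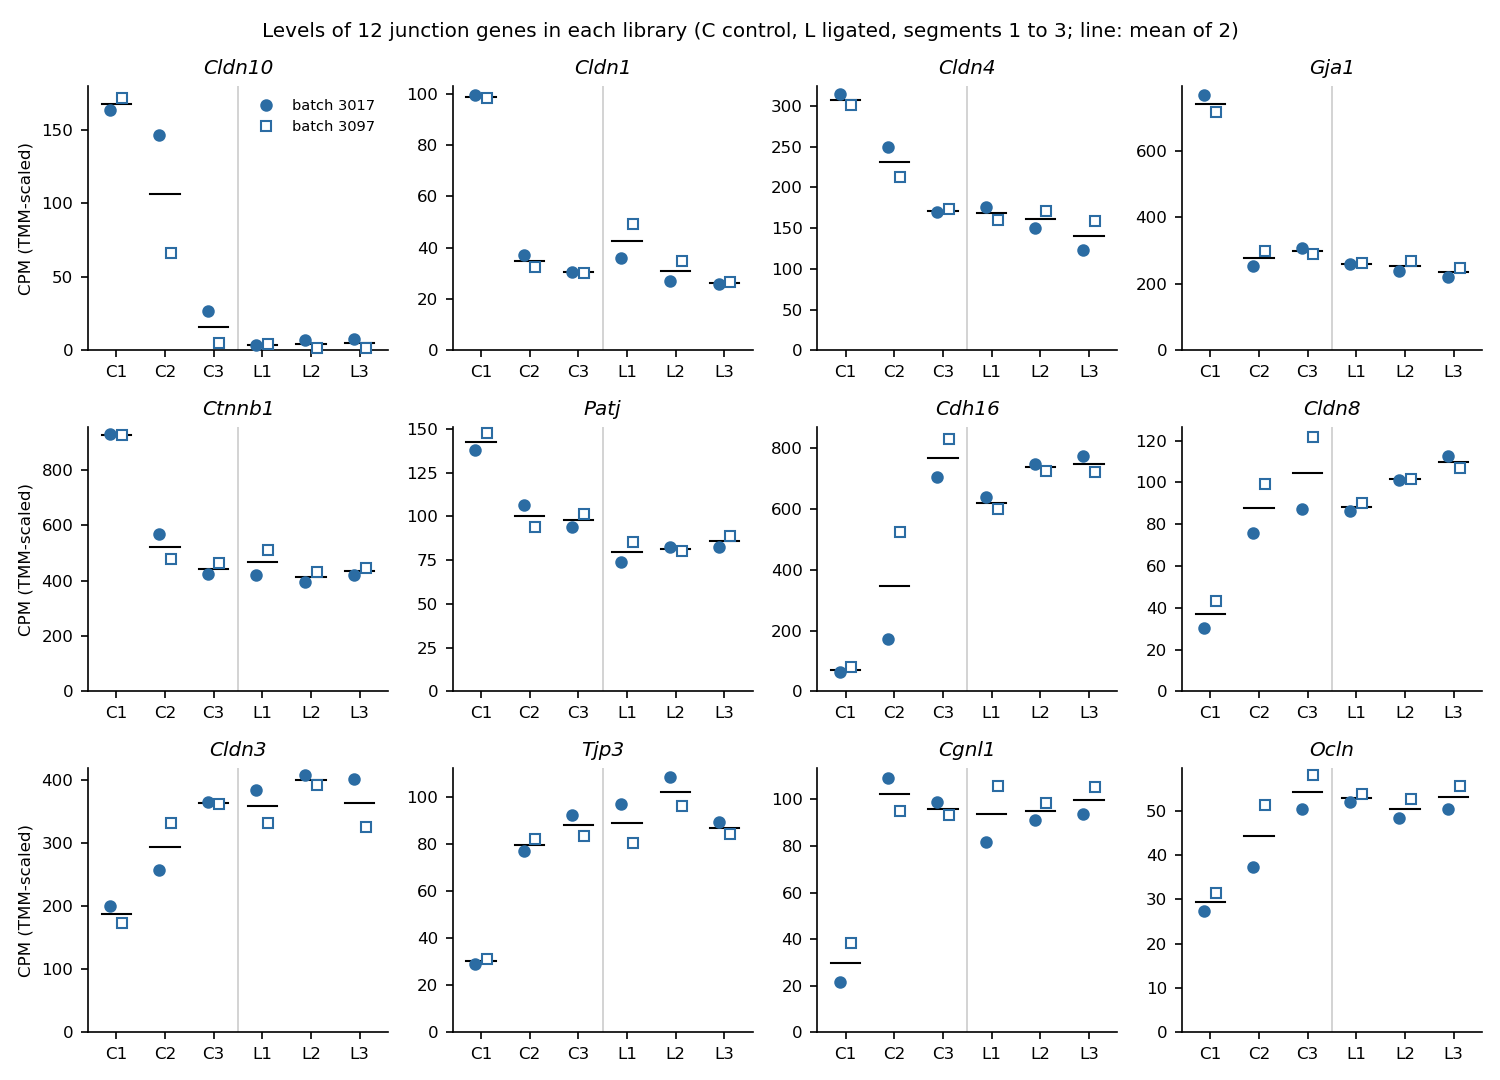
Level of 12 junction genes in each library (CPM, linear axes from 0; filled circles batch 3017, open squares batch 3097, lines the mean of 2), with control segments 1 to 3 on the left and ligated segments on the right. In Cldn1, Gja1, Tjp3 and Cgnl1 the control segment 1 libraries stand far from all others, which differ less among themselves, whereas Cldn10, Cldn4, Cdh16 and Cldn3 shift along the control segments.

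Markers of other cell types moved between the same groups. Smooth muscle markers summed to 3500 to 3505 CPM in control segment 1 and 579 to 712 in ligated segment 1, while single genes went mostly up (6 of 10 rose and 2 fell). Fibroblast markers summed to 628 to 639 and 229 to 351 CPM (7 of 10 higher, 1 lower), and endothelial markers to 153 to 160 and 71.5 to 83.9 CPM (1 of 12 higher, 7 lower). Clear and narrow cell markers went the other way, from 291 to 382 CPM to 1067 to 1168 (6 of 11 tested higher, 1 lower). The principal cell list summed to 83030 to 100700 CPM in control and 43910 to 48700 in ligated segment 1 (8 of 10 lower). Its median log2 fold change was -6.37, a larger fall than that of the sum. The general epithelial list summed to 2431 to 2614 and 2933 to 3030 (2 higher, 2 lower), and the basal cell list to 471 to 473 and 390 to 544 (2 higher, 4 lower). Ciliated cell markers held 102 to 104 and 185 to 208 CPM (8 of 10 higher). No marker of these lists was at 0 in all libraries of a group. Of the remaining lists, mesothelial markers summed to 59.2 to 77.7 and 493 to 531 CPM (1 of 2 tested higher). Only these 2 of the 6 listed passed the filter and up to 3 were at 0 in a group, so that sum does not stand for the whole list. Leukocyte markers summed to 105 to 120 and 184 to 203 (3 of 8 tested higher). Testis somatic cell markers held 78.2 to 159 and 34.4 to 48.5 (2 of 7 tested higher, 1 lower), with Fshr, a defining Sertoli cell gene, at 0 throughout. Germ cell and sperm markers held 10.3 to 12.3 CPM in control segment 1 and under 1 CPM after ligation, all 9 tested lower in each segment, with Tex101 at 0 in both segment 1 groups. None of the 6 adipocyte markers passed the filter. The part of these shifts in the junction results was not tested.

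In segment 2, ligation calls were few, and their number depended on which library was left out and on the batch term. The test called 5 of the 38 genes, with 2 rises and 3 falls (9.86% of all genes were called). Cldn10 fell from 106 ± 56.6 to 4.11 ± 3.82 CPM, a log2 fold change of -4.83 ± 0.89 (adjusted p = 0.03), with both ligated libraries far below both control libraries. Cldn4 had 249.5 and 212 CPM in control and 150.5 and 171 in ligated segment 2 (-0.52 ± 0.13, adjusted p = 0.0369). Cldn2 fell by -0.51 ± 0.14 (adjusted p = 0.0459), Tjp3 rose by 0.36 ± 0.10 (adjusted p = 0.0492), and F11r rose from 92.0 and 109 to 127 and 127 CPM (0.34 ± 0.09, adjusted p = 0.0469). At an unadjusted p under 0.05 there were 17 genes. The share of all genes at that level is not given, here or for such counts below. These counts therefore show nothing particular to the junction genes. Leaving out the control segment 2 library of batch 3097 gave 17 calls, leaving out the other control segment 2 library or either ligated segment 2 library gave 0, and leaving out any of the 8 libraries of segments 1 and 3 gave 1 to 3. Without the batch term the count was 0, and with library totals alone it was 10, of which 9 were higher. Library totals move the median log2 fold change of all genes in segment 2 by 0.129. Here and below, leaving out 1 library also moved the calls over all genes, so such counts are not particular to the junction genes. Among the genes not called were Patj (107 and 93.9 against 82.5 and 80.3 CPM, adjusted p = 0.0739), Cdh3 (43.6 and 55.8 against 112 and 72.6, adjusted p = 0.0562) and Cldn23 (1.65 and 2.25 against 3.86 and 4.07, adjusted p = 0.0567).

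In segment 3, edgeR called 0 of 38 genes for ligation (1.72% of all genes were called), and DESeq2 also called 0. At an unadjusted p under 0.05 there were 5. The adjusted p closest to the threshold was that of Gja1, with 309 and 289 CPM in control and 222 and 248 in ligated segment 3 (-0.35 ± 0.11, adjusted p = 0.165). Cldn10, at 26.8 and 4.87 against 8.04 and 1.49 CPM, overlapped (-1.68 ± 0.82, adjusted p = 0.388). Tjp3 (-0.015 ± 0.10), Ocln (-0.03 ± 0.10), Cldn3 (-0.001 ± 0.14) and Cdh16 (-0.02 ± 0.41), which rose in segment 1, had differences within their SE here.

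**Figure D4:**
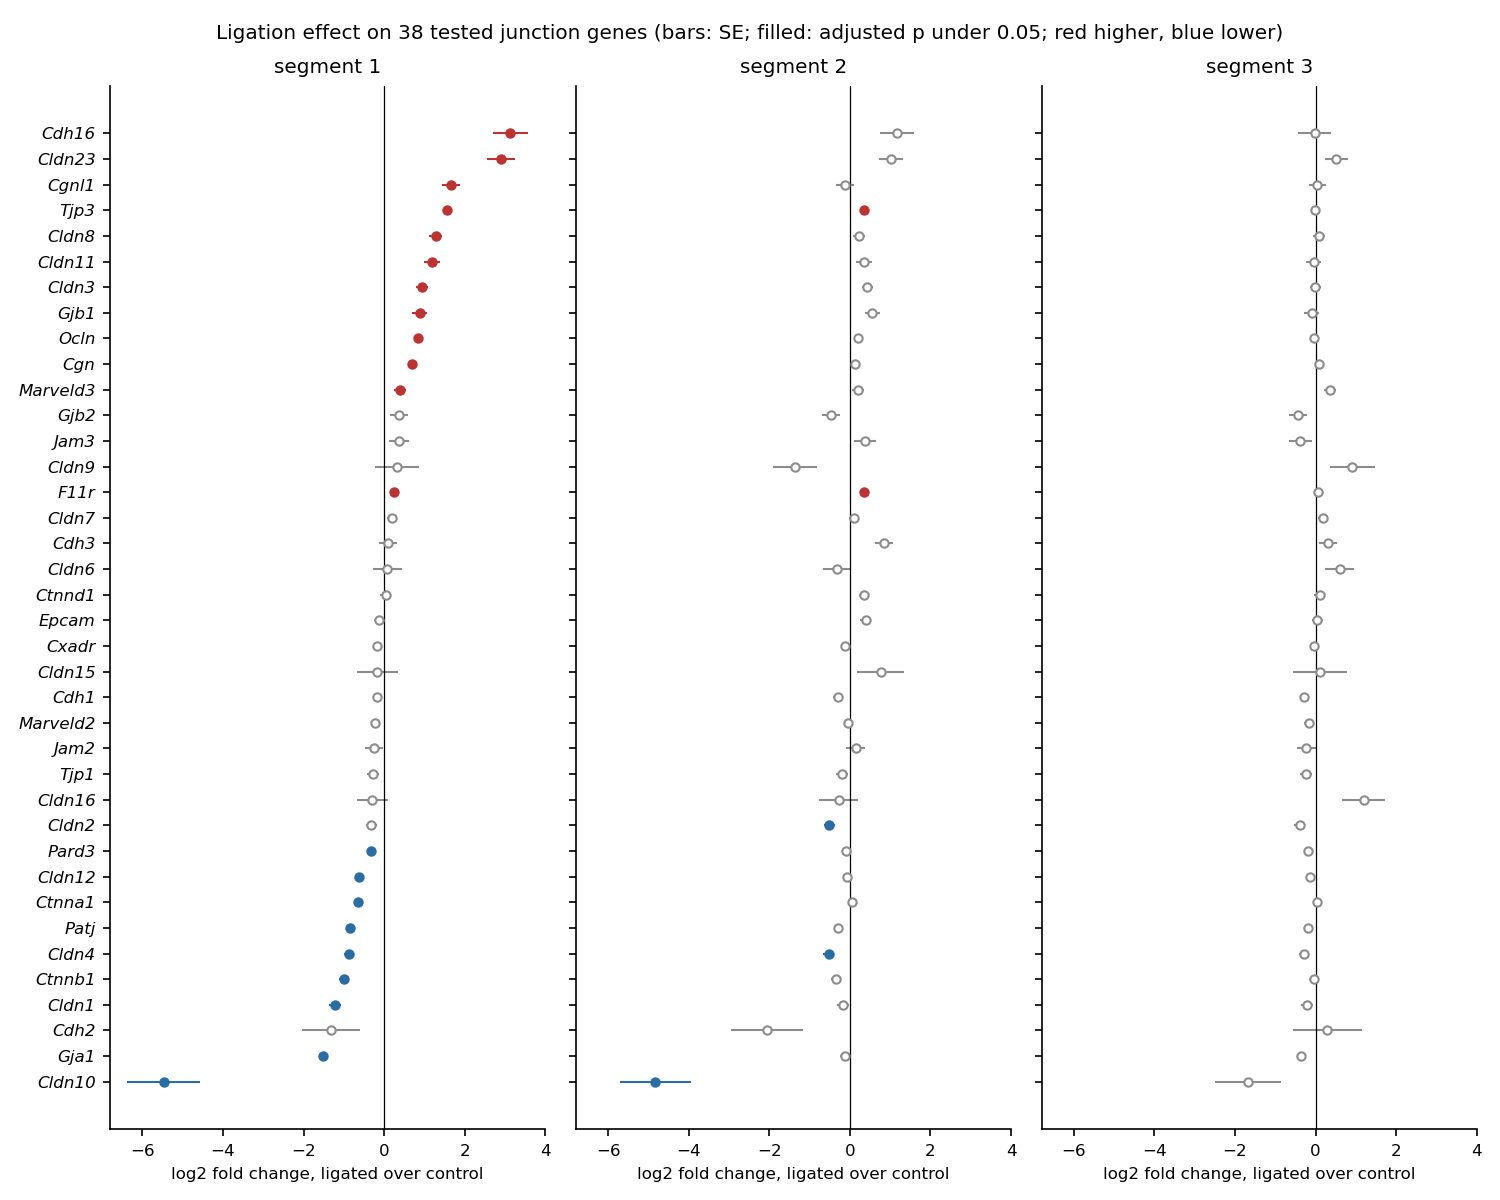
Log2 fold change of ligated over control tissue for the 38 tested genes in segments 1, 2 and 3 (points; bars are SE; filled red higher and filled blue lower at an adjusted p under 0.05), ordered by segment 1. Of the genes drawn, 21, 5 and 0 are filled in segments 1, 2 and 3.

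Whether the ligation effect itself differed between segments was tested as an interaction. Between segments 1 and 2, 12 of 38 genes were called, 6 with a higher and 6 with a lower effect in segment 1 (18.5% of all genes were called). Between segments 1 and 3, 17 were called, 10 higher and 7 lower (30.7% of all genes). Gja1 differed by -1.39 ± 0.15 against segment 2 (adjusted p = 0.00094) and by -1.16 ± 0.15 against segment 3 (adjusted p = 0.000772). Tjp3 differed by 1.19 ± 0.14 (adjusted p = 0.0012) and 1.57 ± 0.14 (adjusted p = 0.000202). For Cdh16 the difference was called against segment 3 (3.15 ± 0.59, adjusted p = 0.0088) and not against segment 2 (1.97 ± 0.58, adjusted p = 0.0636), whose control pools lay far apart. For Cldn10 neither difference was called (-0.64 ± 1.15 against segment 2, adjusted p = 0.751; -3.79 ± 1.17 against segment 3, adjusted p = 0.0587). Against segment 2, 16 genes were called after dropping the control segment 2 library of batch 3017, and 14 after dropping its partner of batch 3097. The number was 6 without the ligated segment 1 library of batch 3017 or the ligated segment 2 library of batch 3097, and 7 without the control segment 1 library of batch 3017.

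The control segments were compared with each other to show how junction transcripts vary along the duct. Between control segments 1 and 2, 21 of 38 genes were called, 12 higher in segment 1 and 9 lower (43.2% of all genes were called). Dropping the control segment 2 library of batch 3017 raised the number called to 24, while dropping its partner of batch 3097 lowered it to 18. In some other setting 8 of the 21 calls were lost. Between control segments 1 and 3 it was 24, 14 higher in segment 1 and 10 lower (51.2% of all genes), of which 7 were lost in some other setting. Between control segments 2 and 3 it was 0 in edgeR (1.79% of all genes), with 10 at an unadjusted p under 0.05, 3 in DESeq2, 10 once the control segment 2 library of batch 3097 was left out, and 0 without that of batch 3017. Between control segments 2 and 3 the calls over all genes also rose in DESeq2 and moved with the library left out. The comparisons of control segments share control libraries with the ligation comparisons, so their values are only set side by side. Gja1 was 1.43 ± 0.11 higher in control segment 1 than in control segment 2 on the log2 scale (adjusted p = 3.73e-05) and Cldn1 1.51 ± 0.15 (adjusted p = 9.99e-05). Tjp3 was lower by -1.40 ± 0.10 (adjusted p = 3.19e-05), Cldn23 by -2.35 ± 0.36 (adjusted p = 0.000799) and Cdh16 by -2.21 ± 0.43 (adjusted p = 0.00707). Each of these 5 genes stayed called without either control segment 2 library. The Cdh16 value became -1.28 without the control segment 2 library of batch 3097, and its call was lost without the control segment 1 library of batch 3017 (adjusted p = 0.0532). Cldn10 was not called between control segments 1 and 2 (0.90 ± 0.73, adjusted p = 0.369) and was higher in segment 1 than in segment 3 (3.85 ± 0.83, adjusted p = 0.0114; adjusted p = 0.0648 without the control segment 3 library of batch 3097). Jam2, at 8.26 and 10.2 CPM in control segment 1 and 5.74 and 5.40 in control segment 3, was called between these segments (0.72 ± 0.23, adjusted p = 0.0282) and not for ligation in segment 1. The Jam2 call was lost on leaving out any of the 4 libraries compared (adjusted p = 0.0601 to 0.157).

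Within ligated tissue few of these genes were called between segments. Between ligated segments 1 and 2, 0 of 38 were called in edgeR and in DESeq2 (1.3% of all genes in edgeR), with 6 at an unadjusted p under 0.05. Between ligated segments 2 and 3 it was 0 by both tools as well (0% of all genes in edgeR), with 4 at an unadjusted p under 0.05. Between ligated segments 1 and 3, 4 were called, all higher in segment 1 (5.8% of all genes were called). They were Jam3 (1.54 ± 0.27, adjusted p = 0.0157), Cdh1 (0.55 ± 0.11, adjusted p = 0.0244), Cldn1 (0.69 ± 0.14, adjusted p = 0.0289) and Gjb2 (0.91 ± 0.23, adjusted p = 0.0475). Cldn1 had 36.0 and 49.2 CPM in ligated segment 1 and 26.1 and 26.6 in ligated segment 3, and Cdh1 286 and 293 against 191 and 205. The count was 0 without the ligated segment 1 library of batch 3097 or without either ligated segment 3 library, and 2 without the ligated segment 1 library of batch 3017.

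After the data were seen, ligated segment 1 was also set against control segment 3. Of 38 genes, 3 were called, all higher in ligated segment 1 (9.4% of all genes were called), and 9 had an unadjusted p under 0.05. They were Cldn16, the magnesium-related claudin of the kidney, at 0.677 and 0.924 against 0.0852 and 0.184 CPM (2.53 ± 0.48, adjusted p = 0.0131), Jam3 (1.17 ± 0.27, adjusted p = 0.0264) and Cgn (0.29 ± 0.08, adjusted p = 0.0482). The lower Cldn16 value of control segment 3 lies at the level of 3 counts (0.07 to 0.10 CPM), so the size of the Cldn16 difference is uncertain. The count was 0 without the control segment 3 library of batch 3017 or the ligated segment 1 library of batch 3097, 1 without the control segment 3 library of batch 3097, and 6 without either control segment 2 library. Without any one of the control segment 1, ligated segment 2 or ligated segment 3 libraries it was 2. None of the 9 genes that ligation changed at least 2-fold in segment 1 was called here. With 9.4% of all genes called, that does not show equal levels. Within their SE of 0 were Tjp3 (0.015 ± 0.10), Cgnl1 (-0.05 ± 0.22), Cdh16 (-0.29 ± 0.41), Cldn11 (-0.16 ± 0.19) and Cldn23 (-0.24 ± 0.28). Farther from 0 were Cldn10 (-1.62 ± 0.85, adjusted p = 0.312), Cldn8 (-0.23 ± 0.15, adjusted p = 0.391), Gja1 (-0.20 ± 0.11, adjusted p = 0.284) and Cldn1 (0.47 ± 0.14, adjusted p = 0.072).

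The positions of the genes were compared with their changes. On GRCm38 5 pairs of listed genes lie within 100 kb of each other, and in none of them were both genes called in the same direction for ligation in segment 1. Cldn4 (chromosome 5, 134945119 to 134946934, minus strand) and Cldn3 (chromosome 5, 134986214 to 134987472, plus strand) are 39.3 kb apart and changed in opposite directions. Ocln rose, while Marveld2, 43.2 kb away on chromosome 13, was not called. Cldn1 fell, while Cldn16, 91.3 kb away on chromosome 16, was not called (-0.29 ± 0.38, adjusted p = 0.559). The cadherin pair Cdh3 and Cdh1 on chromosome 8 (46.1 kb) and the low claudins Cldn6 and Cldn9 on chromosome 17 (0.138 kb) were not called in either member.

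Promoter sequences are shown for the genes with the smallest adjusted p in each direction (Tjp3 and Gja1), the largest fall (Cldn10, with both of its listed starts) and the neighbours Cldn3 and Cldn4. They are the 250 bases before the start in RefSeq on GRCm38.p6, on the strand of the gene, and capitals mark matches on either strand to CAGGTG, an E-box bound by Snail and Zeb factors, or TGACTCA, the AP-1 site.
Tjp3 (chr10:81291582-81291831, minus strand): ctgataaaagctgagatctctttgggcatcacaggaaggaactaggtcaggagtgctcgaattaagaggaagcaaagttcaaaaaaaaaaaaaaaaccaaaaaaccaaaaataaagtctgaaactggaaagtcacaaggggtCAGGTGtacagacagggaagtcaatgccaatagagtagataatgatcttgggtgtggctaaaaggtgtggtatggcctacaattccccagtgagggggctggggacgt
Cldn3 (chr5:134985964-134986213, plus strand): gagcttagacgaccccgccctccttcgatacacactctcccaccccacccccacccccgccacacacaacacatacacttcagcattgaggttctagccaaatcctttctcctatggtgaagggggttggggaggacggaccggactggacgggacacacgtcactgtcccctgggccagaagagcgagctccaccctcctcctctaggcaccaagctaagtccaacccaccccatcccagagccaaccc
Cldn4 (chr5:134946935-134947184, minus strand): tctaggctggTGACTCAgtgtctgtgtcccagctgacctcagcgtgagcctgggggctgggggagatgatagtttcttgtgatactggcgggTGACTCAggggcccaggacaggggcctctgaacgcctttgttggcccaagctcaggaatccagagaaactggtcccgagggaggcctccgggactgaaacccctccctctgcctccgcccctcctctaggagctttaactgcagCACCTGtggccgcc
Gja1 (chr10:56377050-56377299, plus strand): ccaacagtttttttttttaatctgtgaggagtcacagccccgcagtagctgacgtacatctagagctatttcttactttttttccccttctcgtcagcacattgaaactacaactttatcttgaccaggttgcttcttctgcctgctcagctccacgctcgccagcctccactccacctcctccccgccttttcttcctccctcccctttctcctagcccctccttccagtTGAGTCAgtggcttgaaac
Cldn10, first start (chr14:118787621-118787870, plus strand): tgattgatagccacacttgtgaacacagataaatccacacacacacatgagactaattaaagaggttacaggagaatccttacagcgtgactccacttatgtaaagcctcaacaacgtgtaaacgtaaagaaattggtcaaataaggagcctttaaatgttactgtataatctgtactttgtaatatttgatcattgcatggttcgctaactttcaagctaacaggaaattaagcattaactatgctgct
Cldn10, second start (chr14:118854700-118854949, plus strand): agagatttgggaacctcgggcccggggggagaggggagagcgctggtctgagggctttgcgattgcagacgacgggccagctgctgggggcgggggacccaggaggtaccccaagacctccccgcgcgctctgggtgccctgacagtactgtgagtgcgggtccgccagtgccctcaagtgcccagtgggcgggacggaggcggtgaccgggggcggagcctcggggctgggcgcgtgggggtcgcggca

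The letters show unlike promoters. The Cldn10 starts differ in base composition, with 36.0% C or G before the first and 72.4% before the second, and counts per gene do not tell which start was used. Cldn3, which rose, has no capitals before its start, while Cldn4, which fell, has 2 AP-1 matches (from positions -240 and -158 relative to the start) and an E-box match from -14. Tjp3 has an E-box match from -108 and Gja1 an AP-1 match from -19. For Gja1 and the first Cldn10 start, the bases after the RefSeq start were not found in a GENCODE vM21 transcript. Positions relative to these starts are therefore uncertain. After the start, in bases not shown, CAGGTG also lies from position 32 of Cldn3 and from 12 of Cldn4. RefSeq windows of 300 bases (250 before to 50 after the start) were found for 28 of the 40 genes, 45 windows in all, some of them overlapping. CAGGTG was in 16 of the 45 (35.6%) and in 20.2% of 32851 windows of all genes. Of the 13 junction genes holding it, 5 rose and 3 fell in segment 1, out of 8 risers and 8 fallers with a window. TGACTCA was in 5 windows (11.1%, against 5.2%), of 5 genes, of which 1 rose (F11r) and 3 fell (Cldn4, Patj and Gja1). The core GGAAGT of ETS factors was in 11 windows (24.4%, against 23.8%). A match describes letters only.

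Other genes of the same structures, outside the list of 40, were counted in the same comparisons, to be read against the 48.7% of all genes called in segment 1 and the 9.86% in segment 2. In segment 1, 3 genes of 29 tested rose and 8 fell (37.9% called) among other tight junction, tricellular and polarity genes, and the largest fall was that of Amot (angiomotin, a Patj partner), from 363 to 37.6 CPM (-3.28 ± 0.57, adjusted p = 0.00456). The largest rise there was Clmp, from 1.12 to 2.07 CPM (0.88 ± 0.24, adjusted p = 0.0128). Of 4 other claudins tested 2 rose and 1 fell: Cldn14 fell from 112 to 40.4 CPM (-1.48 ± 0.23, adjusted p = 0.00134), and the endothelial claudin Cldn5 went from 4.34 to 7.22 CPM (0.74 ± 0.20, adjusted p = 0.013). Among 23 other cadherins, catenins and nectins 6 rose and 7 fell, led by Cdh11 (1.45 ± 0.27) and by Vcl, the vinculin gene, which fell from 252 to 59.1 CPM (-2.09 ± 0.22, adjusted p = 0.000203). Of 11 desmosome genes 3 rose and 4 fell, with Evpl (envoplakin) from 8.75 to 27.4 CPM (1.65 ± 0.12, adjusted p = 1.82e-05) and Dsg2 (desmoglein 2) from 126 to 79.5 CPM (-0.67 ± 0.12, adjusted p = 0.0013). Of 11 other connexins and pannexins 4 rose and 3 fell.

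Regulators of the epithelial state had 16 of 20 genes called in segment 1, 11 higher and 5 lower (80.0%, against 48.7% of all genes), with a median log2 fold change of 0.52 against 0.03 over all genes. The list mixes factors of opposed roles, the Snail, Zeb and Twist genes with the Grhl, Ovol and Esrp genes. Its counts and median therefore give no direction for the epithelial state. Elf5, an ETS factor of glandular epithelia, had the largest rise, from 0.0697 to 3.12 CPM (5.54 ± 0.70, adjusted p = 0.000392). Its control mean lies at the level of 3 counts (0.07 to 0.10 CPM), so the size of that rise is uncertain. Snai1, the Snail gene, known as a repressor of E-cadherin, had the largest fall, from 3.14 to 0.401 CPM (-2.96 ± 0.47, adjusted p = 0.000748). In segment 2, where 9.86% of all genes were called, the counts of rises and falls were 0 and 1 among other claudins (Cldn14, -1.75 ± 0.23), 0 and 2 among tight junction and polarity genes (Amot, -4.37 ± 0.60), 1 and 2 among cadherins, catenins and nectins (Camsap3, 0.27 ± 0.07; Vcl, -1.70 ± 0.22), 0 and 1 among desmosome genes (Perp, -0.50 ± 0.13), 1 and 1 among connexins (Gja4, 1.34 ± 0.26; Gjb6, -0.90 ± 0.24) and 3 and 0 among the regulators (Elf5, 1.95 ± 0.45). In segment 3 no gene of these lists was called. Cldn25, Cldn26 and Igsf5 had no match by symbol.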

How the data were processed

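Polyadenylated RNA of 12 libraries (6 groups, 1 library per group in each of 2 sequencing batches, each a pool of 2 mice) was sequenced from directional libraries, per the labels' protocols. The deposited values are raw read counts per gene made by the authors. Per the submitters' processing notes the tools were Trim Galore 0.6.0, cutadapt, FastQC and STAR 2.7.0e, with the mouse build GRCm38 (mm10). Which program counted the reads, with what strand setting and which annotation, is not stated in those sources. GENCODE vM21 held each of the 55536 gene identifiers and gave symbols, positions and exon lengths.

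Counts were tested with edgeR 4.0.16 in R 4.3.3: genes passing filterByExpr with a minimum count of 10 (19213), TMM scaling, group and batch as terms over all 12 libraries, and the two-sided quasi-likelihood test with 5 residual degrees of freedom, with calls made where the p adjusted by Benjamini-Hochberg was under 0.05. SE is the log2 fold change divided by the square root of F. The procedure was also run on simulated counts with the same spread for every gene and no batch effect, a simpler setting than these data. Replicate numbers in the labels are not tied to batches, so libraries were paired by batch, as the series' design text states; deviations of libraries of 1 batch from their group means correlated by 0.08 to 0.55, and 1798 genes were called between batches. Alternatives were library totals alone, DESeq2 1.42.0, no low-count filter, a minimum count of 50, no batch term, and leaving out each library. Named genes are the 40 listed genes, and of other lists those called with the largest change in each direction and at least 2 CPM in a group. For the other connexins in segment 1, single genes are not reported here. The members and lists were chosen with earlier results of these data known. Depth was 30.5 to 42.3 M counts per library, and floors of 3 counts cover counting error only.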

Additional observations from a re-analysis of the deposited data

Results flagged for a closer look

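The log2 ligation effect differed between segments for some junction genes, by edgeR's interaction test. Against segment 2 the effect in segment 1 was higher for Cldn23 (1.868), Cgnl1 (1.782), Tjp3 (1.192), Cldn8 (1.053), Ocln (0.645), Cgn (0.556), the values being differences between the 2 log2 fold changes. It was lower for Gja1 (-1.387), Cldn1 (-1.048), Ctnna1 (-0.681), Ctnnb1 (-0.656), Cldn12 (-0.553), Patj (-0.541). The adjusted p of these 12 genes ran from 0.00094 to 0.0283, and 5 of them stayed past the threshold in all 17 other settings.

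Against segment 3 the effect in segment 1 was higher for Cdh16 (3.154), Cldn23 (2.374), Cgnl1 (1.622), Tjp3 (1.566), Cldn11 (1.239), Cldn8 (1.192), Gjb1 (0.987), Cldn3 (0.94), Ocln (0.873), Cgn (0.603). It was lower for Gja1 (-1.163), Cldn1 (-1.009), Ctnnb1 (-0.965), Ctnna1 (-0.67), Patj (-0.654), Cldn4 (-0.584), Cldn12 (-0.486). The adjusted p of these 17 genes ran from 0.000202 to 0.0393, and 14 of them stayed past the threshold in all 17 settings, the exceptions being Cldn4, Cldn12 and Gjb1. Both sets of differences use the same segment 1 libraries.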

How the results depend on the processing

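Of the 21 junction genes called for ligation in segment 1, 18 kept their call and direction in all 17 other settings, and Marveld3, F11r and Pard3 did not. The count was 19 to 21 in the 5 other analyses and 18 to 23 leaving out 1 library. In segment 2 none of the 5 calls held in all settings: the count was 10 with library totals alone, 10 with DESeq2, 3 with the stricter filter and 0 with no replicate block (the batch term), and 0 to 17 leaving out 1 library. In segment 3 it was 0 throughout. Between control segments 2 and 3 DESeq2 called 3 junction genes, and leaving out 1 library gave 0 to 10. Between ligated segments 1 and 3 the fit without the batch block called 2, and leaving out 1 library 0 to 5. For ligated segment 1 against control segment 3 library totals gave 6, the stricter filter 1, and leaving out 1 library 0 to 6. For the difference in ligation effect between segments 1 and 2 leaving out 1 library gave 6 to 16. The cause of these moves was not tested.

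Over all genes, the fit without the replicate block called 1162 in segment 2, 0 between control segments 2 and 3, 112 between ligated segments 1 and 2, 577 between ligated segments 1 and 3, 2255 for the effect in segment 1 against segment 2, and 1023 for ligated segment 1 against control segment 3. DESeq2 called 649 for ligation in segment 3, 1587 between control segments 2 and 3, and 527, 32 and 1724 between ligated segments 1 and 2, 2 and 3, and 1 and 3. The stricter filter gave 112 between ligated segments 1 and 2. Leaving out 1 library gave 148 to 4066 for ligation in segment 2, 70 to 501 in segment 3, 4749 to 8214 between control segments 1 and 2, 0 to 2384 between control segments 2 and 3, 0 to 626, 0 to 8 and 15 to 2059 between ligated segments 1 and 2, 2 and 3, and 1 and 3, 1614 to 4655 and 3835 to 6722 for the effect in segment 1 against segments 2 and 3, and 335 to 2742 for ligated segment 1 against control segment 3.

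Signs reversed only for fold changes that were not called. With library totals alone, which move the median of all genes by 0.202, 0.129 and 0.031 in segments 1, 2 and 3, the values became 0.035 for Cldn15, 0.039 for Cxadr, 0.036 for Cdh1 and 0.078 for Epcam in segment 1. In segment 2 they became 0.049 for Cldn12, 0.091 for Marveld2, 0.015 for Cgnl1, 0.033 for Pard3, 0.01 for Cxadr and 0.002 for Gja1. In segment 3 they became 0.031 for Cldn3, 0.003 for Ocln, 0.017 for Tjp3, 0.011 for Cdh16 and 0.002 for Ctnnb1, and Cldn3 there was 0.002 with DESeq2, 0.011 with no low-count filter and 0.002 with no replicate block. Leaving out 1 library, values that changed sign ranged as follows in segment 1: Cldn6 -0.303 to 0.41, Cldn9 -0.411 to 1.499, Cldn15 -0.485 to 0.212, Jam2 -0.592 to 0.041, Ctnnd1 -0.151 to 0.214. In segment 2 they were Cldn1 -0.33 to 0.013, Cldn6 -0.83 to 0.11, Cldn7 -0.102 to 0.371, Cldn12 -0.147 to 0.008, Cldn16 -0.536 to 0.016, Tjp1 -0.411 to 0.085, Cgnl1 -0.321 to 0.138, Pard3 -0.181 to 0.013, Jam2 -0.114 to 0.449. In segment 3 they were Cldn3 -0.13 to 0.138, Cldn8 -0.084 to 0.269, Cldn11 -0.36 to 0.243, Cldn15 -0.061 to 0.317, Ocln -0.049 to 0.009, Tjp3 -0.047 to 0.035, Cgnl1 -0.115 to 0.233, F11r -0.007 to 0.134, Cdh2 -2.142 to 1.168, Cdh16 -0.274 to 0.219, Ctnna1 -0.007 to 0.092, Ctnnb1 -0.061 to 0.016, Epcam -0.021 to 0.125.

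A group holds 2 pools, so leaving out 1 leaves a lone library assumed to vary like the others, and low genes such as Cldn15, Cdh2 and Cldn18 are limited by depth.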
